A study of Mus musculus with 12 samples.

Results

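The enzymes that write and remove cytosine methylation were followed in mouse gastruloids embedded in hydrogels: *Dnmt1*, *Uhrf1*, *Dnmt3a*, *Dnmt3b*, *Dnmt3l*, *Tet1*, *Tet2* and *Tet3*. These 8 genes were chosen by name, matched by symbol in the deposited expression table and taken by Ensembl identifier from the count table, where they are 8 of 55141 genes. Gastruloids are aggregates of embryonic stem cells that break symmetry and lay down a body axis in culture. All groups used cells of the 129/SVEV background, seeded at 300 per well and given a pulse of 3 µM CHIR99021, a GSK3 inhibitor that activates Wnt signalling, for 24 h from 48 h. They were then embedded in a dextran-PEG hydrogel at 72 h in 1.0 mM gel, at 96 h in 1.0 mM gel, at 72 h in 1.5 mM gel or at 96 h in 1.5 mM gel. All were collected at 120 h, so the groups also differ in how long the gastruloids had spent in the gel. Each of the 4 groups held 3 replicates, and each library of poly-A-selected RNA was a pool of about 30 gastruloids.

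In mammals, *Dnmt3a* and *Dnmt3b* encode the de novo methyltransferases that place methyl groups on unmethylated CpG dinucleotides, and *Dnmt3l* encodes a catalytically inactive cofactor that stimulates them and is known from germ cells and pluripotent cells. *Dnmt1* encodes the maintenance methyltransferase that copies the pattern onto the new strand after replication, and *Uhrf1* encodes the protein that recognises the half-methylated site and brings Dnmt1 to it. *Tet1*, *Tet2* and *Tet3* encode dioxygenases that oxidise 5-methylcytosine and so open the way to its removal, and the genome is remethylated around implantation, before gastrulation begins. The libraries measure RNA only, and neither methylation nor protein was measured.

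The members lie on 8 different loci of mm10. *Dnmt1* (ENSMUSG00000004099) spans chr9:20907209-20959888 on the minus strand, and *Uhrf1* (ENSMUSG00000001228) spans chr17:56303321-56323486 on the plus strand. *Dnmt3a* (ENSMUSG00000020661) lies at chr12:3806527-3914443, *Dnmt3b* (ENSMUSG00000027478) at chr2:153649450-153687730 and *Dnmt3l* (ENSMUSG00000000730) at chr10:78042287-78063622, all on the plus strand. *Tet1* (ENSMUSG00000047146) lies at chr10:62804570-62908996, *Tet2* (ENSMUSG00000040943) at chr3:133463679-133545139 and *Tet3* (ENSMUSG00000034832) at chr6:83362373-83459084, all on the minus strand. Exons of 3 members overlap a gene on the opposite strand. *Dnmt3l* shares 67 exon bases, or 2.24% of its own, with *Aire*, which had 0 to 27 counts per library. *Dnmt3a* shares 133 bases (0.799%) with *Dnmt3aos* and *Tet2* shares 43 bases (0.255%) with *Gm42567*, and neither antisense gene had more than 2 counts in a library. The strand setting of the counting was not stated, so reads from these shared bases cannot be assigned.

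The sequence before the annotated starts is printed for *Dnmt3l*, the member whose level differed most between the groups, and for *Dnmt3b*, the most expressed de novo enzyme per length. RefSeq gives 15 starts for the 8 members in GRCm38.p6, and the 150 bases before each were compared by their CpG content, which is itself the substrate of these enzymes. Capitals mark CG dinucleotides, and the sequences read 5′ to 3′ on the plus strand.
Dnmt3l start 1: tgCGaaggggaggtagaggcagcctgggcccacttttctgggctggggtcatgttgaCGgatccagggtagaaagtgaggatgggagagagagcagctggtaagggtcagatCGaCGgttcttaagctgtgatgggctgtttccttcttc
Dnmt3l start 2: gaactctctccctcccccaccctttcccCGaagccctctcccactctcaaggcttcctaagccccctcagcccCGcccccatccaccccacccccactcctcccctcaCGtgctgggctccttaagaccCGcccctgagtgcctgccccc
Dnmt3l start 3: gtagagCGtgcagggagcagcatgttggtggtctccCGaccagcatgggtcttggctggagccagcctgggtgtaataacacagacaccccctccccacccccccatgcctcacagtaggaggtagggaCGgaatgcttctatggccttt
Dnmt3b: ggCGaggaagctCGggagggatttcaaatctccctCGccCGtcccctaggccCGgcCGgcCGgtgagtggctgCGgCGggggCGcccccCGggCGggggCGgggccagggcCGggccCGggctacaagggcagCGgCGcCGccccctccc
The first window of *Dnmt3l* is chr10:78042137-78042286, within an intron of *Aire* on the other strand. The second is chr10:78049692-78049841 and the third is chr10:78055185-78055334, both within introns of longer *Dnmt3l* transcripts. They hold 4, 4 and 3 CG dinucleotides, against a median of 4 over 32851 mouse promoter windows of 150 bases. The *Dnmt3b* window, chr2:153649299-153649448, holds 18, more than 90.8% of all windows, with a GC content of 80.7%. Among the other members the *Tet2* window holds 30, *Tet3* 12 and *Tet1* 8. *Dnmt3a* has windows with 21, 28 and 9, *Uhrf1* with 9 and 16, and *Dnmt1* with 1, 7 and 14. By these counts the 3 *Dnmt3l* windows are the CpG-poorest of the set apart from 1 *Dnmt1* window. The gene-level counts do not tell which start was used.

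Total counts ran from 23011791 to 27609422 per library. The library of replicate 1 at 72 h in 1.5 mM gel stood apart from the other two of its group. Its chi-square per degree of freedom against them was 67.5 and 113, while other pairs within a group gave 9.34 to 47.1. Replicate 2 at 96 h in 1.5 mM gel came next, at 31.7 and 47.1, where the other pair of its group gave 12.7. Calls that rest on replicate 1 at 72 h in 1.5 mM gel were also tested without it. The member fits were run without each library in turn, but the list and marker counts only without that replicate 1. Markers of the cell types a gastruloid can hold differed between the embedding times. Over both gels, 16.2% of all tested genes were called higher and 14.8% lower at 72 h than at 96 h by edgeR (adjusted p below 0.05). Of the markers, 12 of 16 markers of pluripotent or germ-cell-like cells and 9 of 10 somite markers were lower at 72 h, and 9 of 10 cardiac and anterior mesoderm markers were higher. Higher and lower markers numbered 1 and 2 of 7 for epiblast and primitive streak, 1 and 5 of 8 for neuromesodermal cells, and 1 and 1 of 7 for presomitic mesoderm. They numbered 5 and 2 of 9 for neural tube, 2 and 5 of 9 for endothelium, 2 and 1 of 8 for endoderm, and 2 and 0 of 3 for blood. Without replicate 1 at 72 h in 1.5 mM gel, 13.6% of all genes were called higher and 12.7% lower over both gels. The counts for pluripotent or germ-cell-like, somite and cardiac markers were then unchanged, and those of the other marker lists moved by at most 1 gene. In bulk RNA, fewer cells of a type and less RNA per cell cannot be told apart, and this holds for each difference in a member given here. The part of these cell types in the members' levels was not tested.

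The levels were compared between members per length, as FPKM, fragments scaled to transcript length and to the mapped total. *Uhrf1* was the highest member, with 71.8 to 92.3 FPKM and a median of 83.1 over the 12 libraries. *Dnmt1* followed at 40.8 to 55.1 FPKM, with a median of 50.1. *Dnmt3b* ran from 33.8 to 47.3 FPKM, with a median of 41.0. These 3 genes stood above 92.1% or more of the 19324 genes with a median FPKM above 0, and *Dnmt1* and *Dnmt3b* overlapped. *Dnmt3a* had a median of 12.0 FPKM and *Tet3* one of 9.75, with overlapping ranges of 9.42 to 19.5 and 8.69 to 14.5. *Tet2*, at 3.11 to 4.72, and *Tet1*, at 2.28 to 4.01, also overlapped. *Dnmt3l* was last in all groups, at 0.0578 to 1.10 FPKM with a median of 0.364. The order was the same with CPM per kilobase of annotated exon except that *Tet1* then stood above *Tet2*. *Dnmt3b* therefore exceeded *Dnmt3a* per length on both scales, and *Tet3* was the most abundant Tet transcript.

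**Figure D1:**
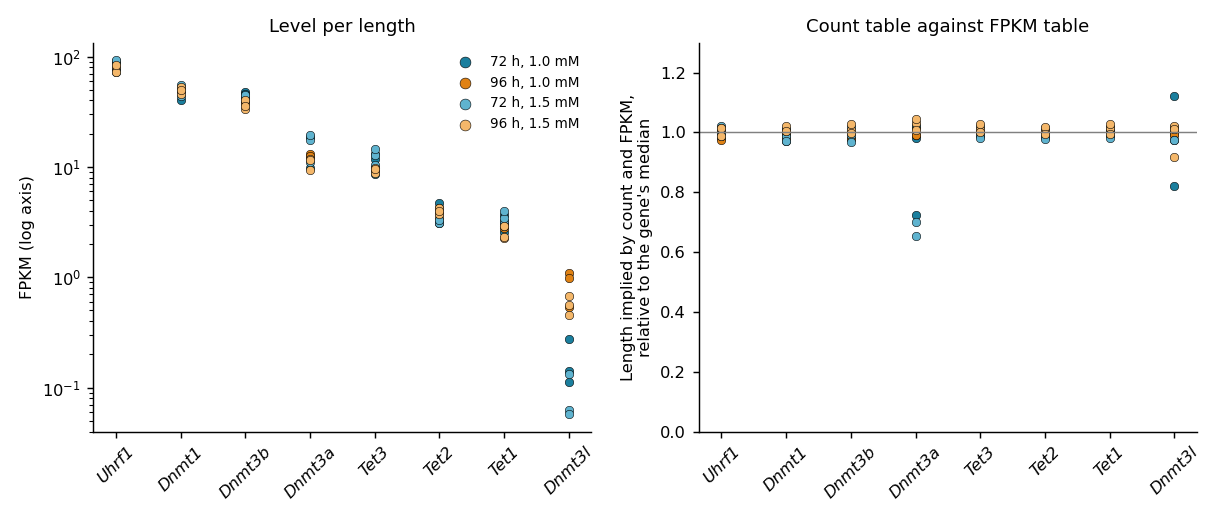
Left, FPKM (log axis) of the 8 genes in the 12 libraries, coloured by group and ordered by median. Right, the length implied by each gene's count and FPKM relative to the gene's median (y axis, no unit). *Uhrf1* lies highest and *Dnmt3l* lowest, and 3 libraries of *Dnmt3a* lie well under 1 on the right.

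The FPKM of *Dnmt3a* needs a separate look, because it and the counts disagreed in 3 libraries. Its FPKM was 18.6 in replicate 1 at 72 h in 1.0 mM gel, and 17.6 and 19.5 in replicates 2 and 3 at 72 h in 1.5 mM gel, against 9.42 to 13.0 in the other 9 libraries. In CPM, counts scaled to library totals corrected by TMM factors, the same 3 libraries had 159, 149 and 152, against 121 to 156 in the others. The length that joins count and FPKM was 8540, 8252 and 7692 bases in those 3 libraries, and 11570 to 12310 bases in the rest. For *Dnmt1*, *Uhrf1*, *Dnmt3b* and the Tet genes this length varied by at most 1.06-fold between libraries. For *Dnmt3l*, which had few counts, it varied by 1.37-fold, from 1748 to 2391 bases. The raised FPKM of *Dnmt3a* was therefore not matched by a raised count, and all 3 libraries belong to the 72 h groups. Comparisons of *Dnmt3a* between groups rest on counts here.

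Over both gels 4 of the 8 members differed between embedding times, and none was called between gel concentrations. *Dnmt3l* was lower after embedding at 72 h than at 96 h, by far the widest difference of the set, while *Dnmt3b*, *Tet1* and *Tet3* were slightly higher. *Dnmt1*, *Uhrf1*, *Dnmt3a* and *Tet2* did not pass the test. A gene was called where edgeR's quasi-likelihood test gave an adjusted p below 0.05 (Benjamini-Hochberg, over all genes tested), and log2 fold changes are 72 h over 96 h. In 1.0 mM gels 1 of 8 members was called, where 9.24% of all 15763 tested genes were. In 1.5 mM gels 3 of 8 were called, against 19.3% of all genes. The backgrounds within a gel depended on single libraries. The 1457 genes called in 1.0 mM gels became 810 and 731 without replicates 2 and 3 at 96 h. The 3033 called in 1.5 mM gels became 1614 and 1342 without replicates 2 and 3 at 72 h, and 1181 and 1224 without replicates 2 and 3 at 96 h. Over both gels 4 of 8 were called, against 31.1% of all genes. With 8 genes these shares are not read as different from the backgrounds. The median log2 fold change of the 8 members over both gels was 0.01, against -0.01 over all genes. With an absolute log2 fold change above 1 as a further condition, *Dnmt3l* alone was left in each of the 3 comparisons, where 4.3%, 3.18% and 4.66% of all genes were left.

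**Figure D2:**
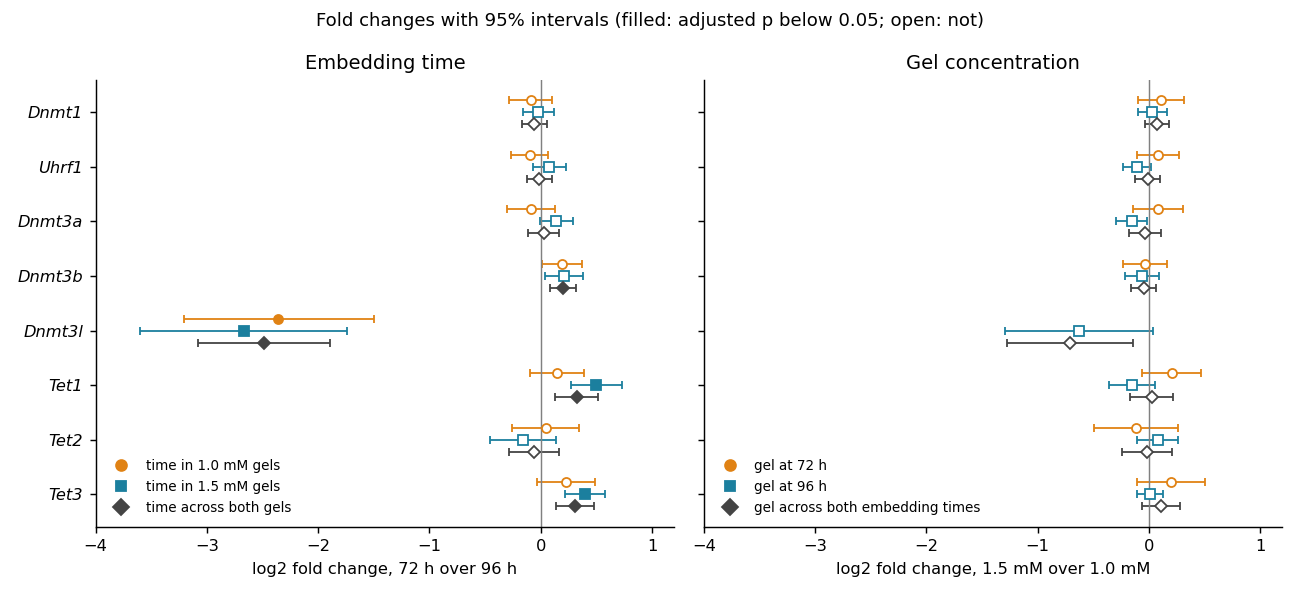
Log2 fold changes (x axis) of the 8 genes with 95% intervals from edgeR, for embedding time at left and gel concentration at right, each within a group of libraries and over all 12. Filled symbols have an adjusted p below 0.05: *Dnmt3l* lies near -2.5 for embedding time in each fit, and no gel comparison has a filled symbol.

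*Dnmt3l* had 8, 6 and 12 counts in the 3 libraries of the 1.0 mM gel embedded at 72 h, or 0.339, 0.245 and 0.499 CPM. After embedding at 96 h in the same gel it had 61, 53 and 32 counts, or 2.34, 2.13 and 1.18 CPM. The lowest library at 96 h was above the highest at 72 h. In 1.5 mM gel the counts were 7, 3 and 3 at 72 h, or 0.311, 0.134 and 0.122 CPM. At 96 h they were 40, 26 and 28, or 1.50, 1.04 and 1.09 CPM. The times did not overlap in this gel either, nor over all 12 libraries, where 11.8% of all genes did not overlap. *Dnmt3l* was thus 5.13-fold higher at 96 h in the gel of 1.0 mM (log2 fold change 72 h over 96 h -2.36, SE 0.390, 95% interval -3.21 to -1.50, edgeR adjusted p = 0.00365). In the denser gel it was 6.36-fold higher at 96 h (log2 fold change -2.67, SE 0.415, interval -3.60 to -1.74, edgeR adjusted p = 0.00442). Over both gels the log2 fold change was -2.49 (SE 0.281, interval -3.08 to -1.89, edgeR adjusted p = 2.07e-05), and 14.8% of all genes were called in that direction. Without replicate 1 at 72 h in 1.5 mM gel, the value in 1.5 mM gels was -3.21 with an edgeR adjusted p of 0.00162. This replicate had 7 of the 13 counts at 72 h in that gel.

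The counts behind *Dnmt3l* are few. Summed over the 3 libraries there were 26 counts at 72 h and 146 at 96 h in 1.0 mM gels, a ratio after scaling of 5.18 with an exact binomial 95% interval of 3.40 to 8.19. The sums in 1.5 mM gels were 13 and 94, a ratio of 6.52 with an interval of 3.63 to 12.7. Both intervals cover counting error only. The gene passed the filter on low counts through the 96 h libraries, and it was not tested between gels at 72 h, where its counts were lowest. With limma on log2(FPKM + 1) and no filter the call in 1.0 mM gels was lost (-0.66, adjusted p = 0.0836), and adjusted p ran from 1.17e-08 to 0.0836 over all alternatives.

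Most markers of pluripotent or germ-cell-like cells moved with *Dnmt3l*. In 1.0 mM gels the summed level of all 16 ran from 120 to 140 CPM after embedding at 72 h. After embedding at 96 h it ran from 181 to 243 CPM. The ranges in 1.5 mM gels were 109.5 to 115 CPM and 164 to 194 CPM. No library at 72 h reached the lowest at 96 h on either measure. Of all genes taken singly, 11.8% did not overlap between the times over the 12 libraries. Of the 15 markers tested in 1.0 mM gels 11 were lower at 72 h, and of the 14 in 1.5 mM gels 10 were. Among all genes 3.27% and 8.98% were lower. *Prdm1* was the 1 marker that was higher in each. Its mean over both gels was 74.3 CPM at 72 h and 43.7 CPM at 96 h. Much of the sum at 72 h is therefore from a marker that went against most others. Without replicate 1 at 72 h in 1.5 mM gel, 11 of 16 were lower in that gel, against 12% of all genes. None of the 16 markers was at 0 in all libraries of a group. The highest *Dnmt3l* level and the highest marker sum were both in replicate 1 at 96 h in 1.0 mM gel. Other marker sums separated the times as well. In 1.0 mM gels the somite sum was 430 to 700.5 CPM at 72 h and 1123 to 1275 CPM at 96 h. In 1.5 mM gels it was 517 to 790 CPM and 921 to 1161 CPM. The cardiac and anterior mesoderm sum was higher at 72 h, also without overlap. The part of pluripotent, germ-cell-like or other cells in the *Dnmt3l* difference was not tested.

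**Figure D3:**
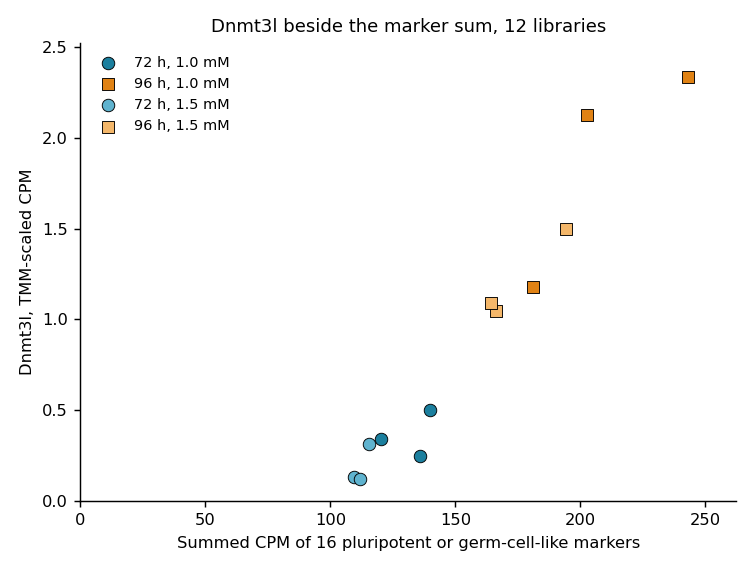
*Dnmt3l* level (y axis, TMM-scaled CPM) against the summed CPM of 16 markers of pluripotent or germ-cell-like cells (x axis) in the 12 libraries, circles for 72 h and squares for 96 h. The 6 circles lie at 140 CPM or less and under 0.5 CPM of *Dnmt3l*, and the 6 squares lie above both. *Prdm1*, which was higher at 72 h, makes up much of the sum of the circles. The sum of somite markers, not shown, also separated the times.

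*Dnmt3b* went the other way by a small amount. It had 252, 249 and 223 CPM at 72 h in 1.0 mM gel, against 224, 210 and 201 CPM at 96 h. In 1.5 mM gel it had 254, 218 and 234 CPM at 72 h, against 219, 198 and 190 CPM at 96 h. The groups touched in both gels, by 1 library each time. The log2 fold change was 0.19 (SE 0.0816, edgeR adjusted p = 0.184) in 1.0 mM gels and 0.21 (SE 0.0769, edgeR adjusted p = 0.0820) in 1.5 mM gels, and neither gel passed alone in this fit. Without the filter on low counts the value in 1.5 mM gels passed (adjusted p = 0.0430). Over both gels it was 0.20, or 1.15-fold (SE 0.0539, 95% interval 0.0875 to 0.317, edgeR adjusted p = 0.0109).

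*Dnmt3a* showed no shared direction. At 72 h in 1.0 mM gel it had 159, 121 and 142.5 CPM, against 156, 145 and 150 CPM at 96 h. At 72 h in 1.5 mM gel it had 146.5, 149 and 152 CPM, and at 96 h 144, 125 and 136 CPM. The times overlapped in 1.0 mM gels and did not in 1.5 mM gels, where 39.9% of all genes did not overlap. The log2 fold change was -0.09 in 1.0 mM gels (SE 0.0987, edgeR adjusted p = 0.639) and 0.14 in 1.5 mM gels (SE 0.0659, edgeR adjusted p = 0.161). Over both gels it was 0.03 with a 95% interval of -0.117 to 0.168.

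Neither gene of the maintenance pair passed the test for embedding time. *Dnmt1* in 1.0 mM gels had 343.5, 297 and 357 CPM after embedding at 72 h and 359, 355.5 and 353 CPM after 96 h. Its values in 1.5 mM gels were 340, 357 and 382 CPM after 72 h and 383.5, 353 and 354 CPM after 96 h. Replicate 2 at 72 h in 1.0 mM gel was the lowest library, and the groups overlapped. The log2 fold change of *Dnmt1* over both gels was -0.06 (SE 0.0523, 95% interval -0.168 to 0.0547, edgeR adjusted p = 0.438). *Uhrf1* in 1.0 mM gels had 360, 366 and 377 CPM at 72 h against 396, 408 and 382.5 CPM at 96 h, with no overlap. In the denser gel it had 357, 392 and 417 CPM against 372, 357 and 373 CPM, and there the times overlapped. In 1.0 mM gels 28.4% of all genes did not overlap, and *Uhrf1* did not pass the test (log2 fold change -0.10, SE 0.0755, edgeR adjusted p = 0.473). Over both gels its log2 fold change was -0.01 with a 95% interval of -0.120 to 0.0970. Differences within these intervals, which come from the fit of all 12 libraries, are not excluded.

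Embedding at 72 h went with higher *Tet1* and *Tet3*, both in the 1.5 mM gels and over all libraries. *Tet1* had 63.9, 62.6 and 71.5 CPM at 72 h in 1.5 mM gel against 53.7, 45.1 and 41.0 CPM at 96 h. It did not overlap between the times in this gel, where 39.9% of all genes did not. In 1.0 mM gel it had 66.3, 48.0 and 57.5 CPM against 51.8, 50.1 and 53.7 CPM, and the 96 h libraries lay within the 72 h range. In 1.5 mM gels *Tet1* was 1.41-fold higher at 72 h (log2 fold change 0.50, SE 0.102, 95% interval 0.268 to 0.726, edgeR adjusted p = 0.0117). In 1.0 mM gels the log2 fold change was 0.15 (SE 0.111, edgeR adjusted p = 0.472), and over both gels it was 0.32 (SE 0.0911, interval 0.129 to 0.516, edgeR adjusted p = 0.0148). The call in 1.5 mM gels was lost without replicate 2 at 96 h in that gel (log2 fold change 0.47, adjusted p = 0.0529), and adjusted p ran from 3.55e-05 to 0.163 over all alternatives.

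*Tet3* had 158, 179 and 199 CPM at 72 h in 1.5 mM gel against 138, 134 and 133 CPM at 96 h. It too did not overlap in this gel, like 39.9% of all genes. In 1.0 mM gel it had 161, 124 and 182 CPM at 72 h against 134, 130 and 137 CPM. Replicate 2 at 72 h in 1.0 mM gel was the lowest of all 12 libraries, and the other two of its group were above every library of 96 h. In 1.5 mM gels *Tet3* was 1.32-fold higher at 72 h (log2 fold change 0.40, SE 0.0806, 95% interval 0.218 to 0.580, edgeR adjusted p = 0.0112). For 1.0 mM gels the log2 fold change was 0.22 (SE 0.119, edgeR adjusted p = 0.297). Without replicate 2 at 72 h it was 0.37 (adjusted p = 0.0187), so this library decides the call in 1.0 mM gels. Over both gels it was 0.31, or 1.24-fold (SE 0.0803, interval 0.141 to 0.483, edgeR adjusted p = 0.00907). The call in 1.5 mM gels was lost without replicate 3 at 96 h (log2 fold change 0.39, adjusted p = 0.0515), and adjusted p ran from 8.81e-05 to 0.171 over all alternatives. In the 3 settings on log2 FPKM with limma neither *Tet1* nor *Tet3* passed, in 1.5 mM gels or over both gels, with adjusted p from 0.0524 to 0.171.

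*Tet2* did not share this pattern. The 1.0 mM gels gave 56.15, 48.1 and 37.9 CPM at 72 h and 50.8, 40.9 and 46.7 CPM at 96 h. The denser gel gave 54.7, 37.4 and 39.2 CPM at 72 h and 51.0, 48.4 and 46.9 CPM at 96 h. The highest library of each 72 h group was above all of 96 h and the lowest was under them. The log2 fold change was 0.04 in 1.0 mM gels (SE 0.136, edgeR adjusted p = 0.887) and -0.16 in 1.5 mM gels (SE 0.132, edgeR adjusted p = 0.419). Replicate 1 at 72 h in 1.5 mM gel, the library that stood apart, was the high one. Without it the value was -0.36 and passed the test (adjusted p = 0.00720), so the call for *Tet2* in 1.5 mM gels turns on that library. Without the same library *Tet1* was at 0.52 (adjusted p = 0.00726) and *Tet3* at 0.48 (adjusted p = 0.000633). Over both gels, its removal left *Dnmt3b*, *Dnmt3l*, *Tet1* and *Tet3* called, at 0.17, -2.62, 0.31 and 0.33.

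**Figure D4:**
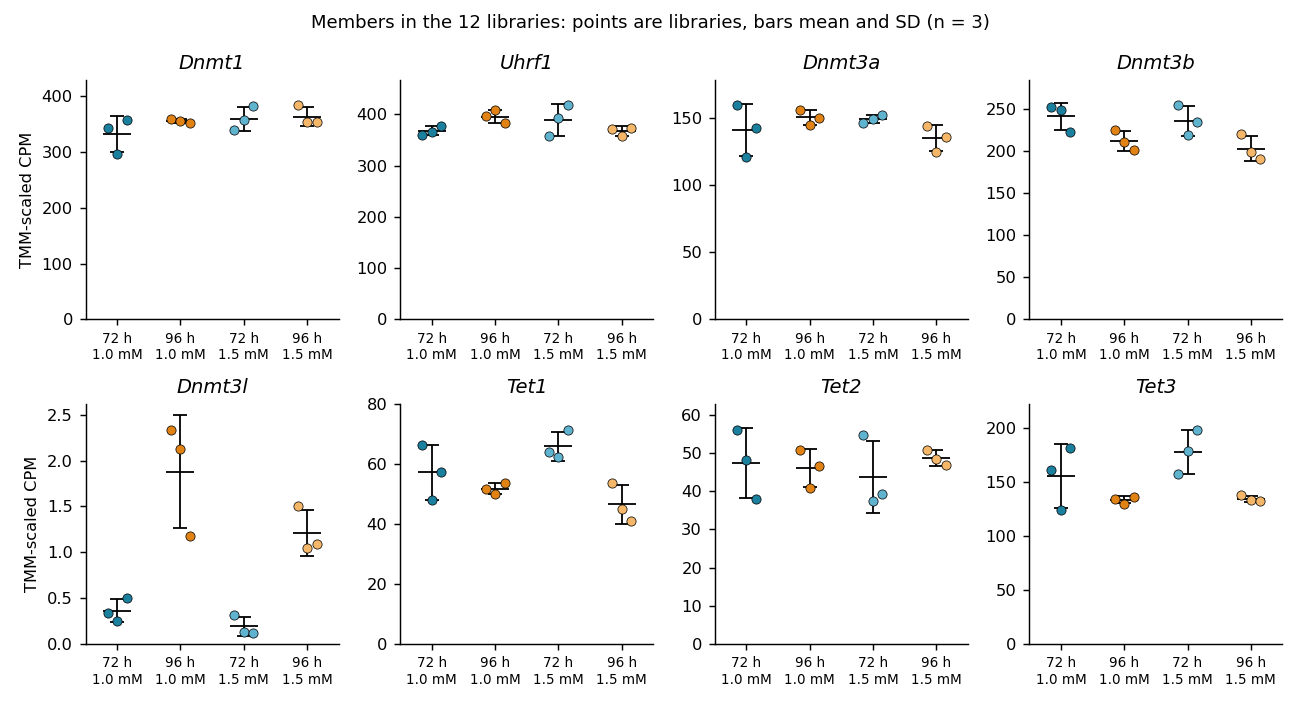
TMM-scaled CPM (y axis, from 0) of each gene in the 4 groups, with a point for each library and bars for the mean and SD (n = 3). *Dnmt3l* lies lower in both 72 h groups, *Tet1* and *Tet3* lie higher at 72 h in 1.5 mM gel, and the other genes overlap widely or differ little.

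Gel concentration gave no called member. At 72 h 0 of 7 tested members were called between 1.5 and 1.0 mM gels, at 96 h 0 of 8, and over both times 0 of 8, against 0%, 0% and 0.0305% of all genes in edgeR. At an unadjusted p under 0.05 the members numbered 0, 1 and 1, where 6.9%, 9.95% and 12.7% of all genes did. DESeq2 and limma-voom also called 0 members in each, where DESeq2 called 14, 86 and 211 of all genes and limma-voom 0, 2 and 4. Without replicate 1 at 72 h in 1.5 mM gel, edgeR called 80 genes over both times in place of 5. At 72 h no member separated the gels without overlap, where 11.1% of all genes did. The interval for *Tet3* ran from -0.109 to 0.501 and that for *Tet1* from -0.0614 to 0.469, and differences within these bounds are not excluded. At 96 h *Dnmt3a* and *Uhrf1* were lower in 1.5 mM gel without overlap, where 15.5% of all genes did not overlap. Their log2 fold changes were -0.16 (SE 0.0647, unadjusted p = 0.0323, edgeR adjusted p = 0.454) and -0.11 (SE 0.0593, edgeR adjusted p = 0.597).

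*Dnmt3l* had the widest gel difference too. Its mean in 1.0 mM gels was 0.361 ± 0.129 CPM after embedding at 72 h and 1.88 ± 0.619 CPM after 96 h (SD, n = 3), and it was 0.189 ± 0.106 and 1.21 ± 0.251 CPM in 1.5 mM gels. Over both times it was 1.64-fold lower in the denser gel (log2 fold change 1.5 mM over 1.0 mM -0.71, SE 0.268, 95% interval -1.28 to -0.139, unadjusted p = 0.0181), and this did not pass the correction (edgeR adjusted p = 0.286). At 96 h alone the log2 fold change was -0.63 (interval -1.29 to 0.0334, edgeR adjusted p = 0.529). The sum of pluripotent or germ-cell-like markers was also lower in 1.5 mM gel at 72 h, without overlap, and overlapped at 96 h. Much of that sum at 72 h is *Prdm1*. Between gels at 72 h 0 of 13 tested markers were called, with a median log2 fold change of -0.14, against 0% of all genes.

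Whether the effect of embedding time differed between gels was tested by their interaction, in which 0% of all genes and 0 of 8 members were called by edgeR, and 0 members by DESeq2 and limma-voom. At an unadjusted p under 0.05 there was 1 member, where 4.32% of all genes were. This was *Tet1*, with a log2 difference of 0.36 (SE 0.162, 95% interval 0.0117 to 0.706, unadjusted p = 0.0436, edgeR adjusted p = 0.953). The differences for *Dnmt3a*, *Uhrf1* and *Tet3* were 0.24, 0.19 and 0.18, and that for *Dnmt3l* was -0.30 with an interval of -1.58 to 0.979. The calls of *Tet1* and *Tet3* in 1.5 mM gels and not in 1.0 mM gels are therefore not shown to be a difference between gels.

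*Tet3* was the larger part of the Tet family in every group. It made up 60.9 ± 5.71% of the summed Tet FPKM at 72 h and 59.0 ± 1.25% at 96 h in 1.0 mM gels, and 63.6 ± 4.65% and 59.3 ± 1.40% in 1.5 mM gels (SD, n = 3). *Tet2* made up 21.9, 23.5, 18.3 and 25.0% in the same order of groups, and *Tet1* 17.2, 17.5, 18.1 and 15.7%. The ratio of *Dnmt1* to *Uhrf1* FPKM was 0.583, 0.578, 0.600 and 0.630. The ratio of *Dnmt3a* to *Dnmt3b* FPKM was 0.299 ± 0.0901, 0.318 ± 0.0182, 0.376 ± 0.103 and 0.295 ± 0.0203, and its wide spread at 72 h includes the 3 libraries in which the FPKM of *Dnmt3a* departed from its count. By CPM per exon kilobase the ratio was 0.180, 0.218, 0.195 and 0.205. *Dnmt3l* was a minor part of the Dnmt3 family throughout, at 0.310 and 1.62% of the summed FPKM in 1.0 mM gels and 0.147 and 1.16% in 1.5 mM gels.

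Across the 12 libraries, which share embedding times, gels and differences in depth, some members varied together. *Tet1* and *Tet3* had a Pearson r of 0.824 on log2 CPM, and 0.624 after subtracting the group means. *Dnmt1* and *Tet3* were at 0.412 over all libraries and at 0.937 within groups, and *Dnmt3a* and *Tet1* at 0.668 and 0.805. *Uhrf1* and *Tet2* ran against each other, at -0.665 and -0.729. *Dnmt3l* and *Tet3* were at -0.696 over all libraries and at 0.0954 within groups, so that relation lies between the groups of embedding time and gel. Replicate 2 at 72 h in 1.0 mM gel was the lowest of its group for *Dnmt1*, *Dnmt3a*, *Dnmt3l*, *Tet1* and *Tet3*. These values describe the libraries and carry no test.

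Among 9729 genes with a mean of at least 10 CPM (9728 for each of the other members, which are themselves among them), the pattern most like that of *Dnmt3l* was in *Rnaseh2c*, *Utf1* and *Sapcd2* (Pearson r 0.964, 0.963 and 0.962 over 12 libraries). After subtracting the group means these were 0.853, 0.563 and 0.696, so part of the likeness lies between the groups. *Utf1*, a marker of undifferentiated embryonic cells, is also among the 16 markers. *Dnmt3b* was most like *Stxbp2*, *Arhgap45* and *Pdp2* (0.960, 0.952 and 0.938), and *Dnmt3a* most like *Sh3d19*, *Ptgfrn* and *Tecpr1* (0.910, 0.905 and 0.853). *Tet1* was most like *Zeb2*, *Usf3* and *Tug1* (0.964, 0.957 and 0.956), *Tet3* most like *Zmym4*, *Cmip* and *Cdk12* (0.985, 0.962 and 0.957), and *Tet2* most like *Itga5* and *Slc44a2* (0.943 and 0.911). *Dnmt1* reached 0.887 with *Ttl*, 0.886 with *Numa1* and 0.883 with *Zcchc24*, and *Uhrf1* reached 0.870 with *Mis12*, 0.856 with *Tro* and 0.852 with *Pknox2*.

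The genes that work with these enzymes were followed over embedding time across both gels, where 16.2% of all genes were called higher and 14.8% lower at 72 h. Of 29 tested relatives and binding partners 1 was higher and 10 were lower, with a median log2 fold change of -0.07. The higher one was *Cxxc4*, which encodes a CXXC protein that binds Tet2 (log2 fold change 0.47, SE 0.0759, edgeR adjusted p = 0.000381). The lower ones included *Nanog*, a pluripotency factor that binds Tet1, at -1.74 (SE 0.160, edgeR adjusted p = 3.3e-06), with 2.51 and 2.57 CPM at 72 h against 9.84 and 7.26 CPM at 96 h. They also included *Gadd45a* at -0.34 and *Cdca7l* at -0.30. *Nanog*, *Dppa3* and *Prdm14* of this list are also among the pluripotent or germ-cell-like markers. In 1.0 mM gels 1 was higher and 4 were lower of 28, against 5.97% and 3.27% of all genes. In 1.5 mM gels 1 was higher and 4 were lower of 27, against 10.4% and 8.98%. Without replicate 1 at 72 h in 1.5 mM gel, 3 were higher and 5 lower of 29 in that gel, against 13.5% and 12% of all genes.

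Downstream of the Tet enzymes, *Tdg*, the glycosylase that excises the oxidised bases, was 0.57 higher on the log2 scale at 72 h over both gels (SE 0.122, edgeR adjusted p = 0.00278). It passed in 1.5 mM gels (0.75, edgeR adjusted p = 0.0127) and not in 1.0 mM gels (0.39, edgeR adjusted p = 0.121). Its levels were 26.05 and 29.2 CPM at 72 h against 20.0 and 17.3 CPM at 96 h, in 1.0 and 1.5 mM gels. The counts over both gels that follow stand beside 16.2% of all genes called higher and 14.8% lower. Among 11 genes of base excision repair 2 were higher, *Tdg* and the ligase gene *Lig3* (0.12). In the same list 2 were lower, the glycosylase genes *Neil3* (-0.32) and *Ung* (-0.28), and the median was -0.10. Of 8 genes for proteins that read methylated CpG, *Zbtb4* (0.64) and *Zbtb33* (0.26) were higher and *Mbd3* (-0.15) was lower, with a median of 0.03. Of 18 genes of the methyl donor and folate cycle 4 were higher and 2 lower, with a median of 0.05. *Shmt1*, a serine hydroxymethyltransferase, fell by 0.41 (SE 0.0512, edgeR adjusted p = 4.42e-05), and *Ahcyl1*, *Mthfd1l* and *Ahcyl2* were at 0.25, 0.20 and 0.19. Of 35 DNA replication genes, followed because maintenance methylation is tied to S phase, 1 was higher and 12 were lower, with a median of -0.08. *Pole*, at -0.44, *Gins1*, at -0.27, and *Cdt1*, at -0.26, were lower, and *Ccne2* was higher at 0.25. In 1.0 mM gels 0 of the 35 were called in either direction, with a median of -0.13, where 5.97% of all genes were higher and 3.27% lower. In 1.5 mM gels 0 were higher and 7 lower, with a median of -0.03, where 10.4% and 8.98% of all genes were. Without replicate 1 at 72 h in 1.5 mM gel 8 were higher and 7 lower, with a median of 0.03. Of all genes 13.5% were then higher and 12% lower in that gel. The count of higher genes turned on this library, and the count of lower genes stayed at 7.

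Lists of genes that are commonly controlled by methylation were described as well, without methylation data. Of 30 tested imprinted genes 9 were higher and 6 lower at 72 h over both gels, with a median of 0.11, against 16.2% and 14.8% of all genes. The 1.0 mM gels had 6 higher and 1 lower, with a median of 0.21, and in 1.5 mM gels 5 were higher and 4 lower, with a median of -0.0071. Without replicate 1 at 72 h in 1.5 mM gel, 5 were higher and 7 lower in that gel. Over both gels *Phlda2* (1.07), *Igf2* (0.88) and *Peg10* (0.78) were higher, and *Mest* was lower (-0.96, SE 0.118, edgeR adjusted p = 4.46e-05), with 846 and 685 CPM at 72 h against 1540 and 1415 CPM at 96 h. *Igf2* and *Mest* passed in each gel. *Phlda2* and *Peg10* passed in 1.0 mM gels and not in 1.5 mM gels (edgeR adjusted p = 0.223 and 0.207). Of 20 germline genes whose promoters are methylated in somatic cells 11 were tested, 0 were higher and 3 were lower, with a median of -1.12 over those tested. The 3 were *Hormad1* (-2.31, edgeR adjusted p = 0.00105), *Piwil2* (-1.12, edgeR adjusted p = 0.0325) and *Rpl10l* (-2.59, edgeR adjusted p = 1.29e-05), named after their values were seen. Each had a mean under 1 CPM over the libraries, and *Rpl10l* is a retrocopy of *Rpl10*, so its reads are uncertain. The 9 germline genes that were not tested had too few counts, and the tested ones passed the filter where they were high.

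The calls in these lists were set beside those within each gel and without the library that stood apart. Of the 23 list genes named here with a mean of at least 1 CPM, all called over both gels, 8 also passed in 1.0 mM gels and 15 in 1.5 mM gels. With the 3 germline genes there were 26, and 23 stayed called over both gels without replicate 1 at 72 h in 1.5 mM gel. The other 3 were *Mbd3* (adjusted p = 0.0589), *Lig3* (adjusted p = 0.103) and *Piwil2* (adjusted p = 0.0631). The count of each list in each direction over both gels moved by at most 1 gene.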

How the data were processed

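Bulk RNA-seq libraries of embedded gastruloids were analysed, 12 in 4 groups of 3, grouped by the embedding time and gel concentration in their titles. The authors selected poly-A RNA with a stranded kit, trimmed reads, aligned them to mm10 and deposited unnormalized counts for each gene, with a strand setting that is not stated. The authors' methods credit STAR with the counting, but HTSeq appears in the name of the table. The authors computed FPKM with Cufflinks, corrected for sequence bias and multiple mapping, and deposited these values as another table. The submitters' processing notes name cutadapt 4.4, STAR 2.7.10b, Cufflinks 2.2.1.3 and DESeq2. A further deposited table holds the authors' own DESeq2 fold changes and p-values and was not used.

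Mitochondrial genes (36) were left out, as in the study. Counts were filtered with filterByExpr (minimum count 10, minimum total 15), scaled by TMM and fitted with glmQLFit and glmQLFTest in edgeR 4.0.16 (R 4.3.3), with Benjamini-Hochberg adjustment over all tested genes. Pairwise fits used 6 libraries. The fits over both gels, over both times and of the interaction used all 12. Standard errors were taken as the log2 fold change over the root of F. CPM use TMM-scaled totals, and correlations use log2 CPM with a prior count of 2. Totals of 23011791 to 27609422 counts make counting error small for all members but *Dnmt3l*. Deposited start coordinates were raised by 1 to count from 1. The sequences are RefSeq's for GRCm38.p6, and exon lengths are from the reference annotation of the same build. The fit of embedding time in 1.0 mM gels was also run on simulated data, and the outcome is not reported here. Those data held no replicate effect and no library that stood apart.

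The members and gene lists were chosen with earlier results of these data known. Named genes are the 8 members, from each list up to 4 called genes with the largest change over both gels and a mean of at least 1 CPM, the 3 genes most like each member (1 of those for *Tet2* is not reported here), and genes that overlap one. *Hormad1*, *Piwil2*, *Rpl10l*, *Prdm1*, *Dppa3* and *Prdm14* fall outside this rule and were named after their values were seen. The 7 pathway lists were relatives and partners, methyl-CpG readers, base excision repair, methyl donor and folate cycle, germline genes, imprinted genes and DNA replication, and the 10 marker lists are those named with the samples. Alternatives were DESeq2 1.42.0, limma-voom (limma 3.58.1), RLE and upper quartile scaling, no filter, a floor of 1 CPM in 3 libraries, keeping mitochondrial genes, a block for replicate number, a single fit of all libraries, limma on log2(FPKM + 1) and log2(FPKM + 0.1) for genes with a mean of at least 0.1 FPKM, log2(FPKM + 1) without that filter, an absolute log2 fold change above 1, and each library left out. Leaving replicate 1 at 72 h in 1.5 mM gel out of the list and marker counts was added after seeing the data.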

Additional observations from a re-analysis of the deposited data

How the results depend on the processing

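Of 1110 member values under the alternatives, 1043 kept their direction and side of the threshold, 48 reversed, 15 were no longer called and 4 became called. No value called in the report reversed. Of 1202 counts of list and marker genes, 1077 stayed within 1.5 times the reported count and 125 did not. The 1077 include counts of 0 that stayed at 0. All pathway lists had 0 genes called in either direction between gels and in the interaction, so this share says little about the lists there. Over both gels *Dnmt3b*, *Dnmt3l*, *Tet1* and *Tet3* stayed called whichever library was left out, and in DESeq2 and limma-voom.

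The settings on FPKM and the added condition on size lowered the counts of called members, and the cause of the former was not tested. In 1.0 mM gels 0 members were called with log2(FPKM + 1) and no filter, in place of 1. In 1.5 mM gels 1 was called with each FPKM setting in place of 3, and over both gels 2 in place of 4. With an absolute log2 fold change above 1 as a condition, 1 was called in 1.5 mM gels and 1 over both gels. Leaving out a library gave 1 to 2, 2 to 4 and 4 to 4 called members for embedding time in 1.0 mM gels, in 1.5 mM gels and over both. *Dnmt3b* became called in 1.5 mM gels without the filter (adjusted p = 0.0430). Per exon kilobase the ratio of *Dnmt3a* to *Dnmt3b* moved to 0.180, 0.218, 0.195 and 0.205. Over all genes the 3 FPKM settings called 615, 632 and 245 for time in 1.0 mM gels in place of 1457, and 1169, 1180 and 348 in 1.5 mM gels in place of 3033. Without the filter 2283 were called in 1.0 mM gels, and over both gels log2(FPKM + 1) without a filter called 3003 in place of 5092. FPKM fold changes are on the log2(value + pseudocount) scale and understate low genes.

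Values near 0 changed sign with FPKM. In the order log2(FPKM + 1), log2(FPKM + 0.1) and log2(FPKM + 1) without a filter, *Dnmt3a* over time in 1.0 mM gels was 0.0437, 0.0436 and 0.0437, and across gels 0.0243, 0.0246 and 0.0243. Between gels at 96 h *Dnmt1* was -0.0252, -0.0257 and -0.0252, and *Tet3* -0.0312, -0.0342 and -0.0312. *Tet1* across gels was -0.00156, -0.00664 and -0.00156. The interaction of *Dnmt3l* was 0.135 with log2(FPKM + 1), with and without a filter.

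Leaving out a library reversed 15 uncalled results. Over time in 1.0 mM gels *Dnmt3a* ran from -0.186 to 0.0108 and *Tet2* from -0.0951 to 0.182, and in 1.5 mM gels *Dnmt1* from -0.0645 to 0.0166. Between gels at 72 h *Dnmt3a* ran from -0.0192 to 0.181, *Dnmt3b* from -0.101 to 0.0169 and *Tet2* from -0.317 to 0.0235, and at 96 h *Tet3* from -0.00415 to 0.0266. Over both gels *Dnmt3a* ran from -0.0150 to 0.0836 and *Uhrf1* from -0.0455 to 0.00832. Across gels *Dnmt3a* ran from -0.0979 to 0.000108, *Uhrf1* from -0.0463 to 0.00598, *Tet1* from -0.0477 to 0.0846 and *Tet2* from -0.0902 to 0.0553. The interaction of *Dnmt1* ran from -0.000688 to 0.125 and that of *Dnmt3b* from -0.0513 to 0.0895.

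Replicate numbers were not taken to pair the samples, since each pairwise comparison had a pair at a correlation of 0.1 or less. Same-numbered pairs were above 0.1 in 13 of 18 cases (0.0365 to 0.313), other pairs in 1 of 36, and 12 of 12 libraries were closest to their own number, a hint from the data only. With the replicate block 1, 4, 0, 0, 4, 0 and 0 members were called, for time in 1.0 mM, time in 1.5 mM, gel at 72 h, gel at 96 h, time over both, gel over both and the interaction, *Dnmt3b* in 1.5 mM gels being the one added (adjusted p = 0.0304). Calls over all genes under the block moved by more than 1.5 times between gels, from 0 to 43 at 72 h, from 0 to 289 at 96 h and from 5 to 81 over both times, and from 0 to 5 for the interaction. Without the filter these 4 counts were 322, 333, 512 and 238, and in DESeq2 14, 86, 211 and 2. With 3 libraries a group, differences of a member within its interval are not excluded, and the low counts of *Dnmt3l* limit its fold change.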
